A study of Mus musculus with 25 samples.

Results

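Ly6e and 7 further genes of the Ly6 family (Ly6a, Ly6c1, Ly6c2, Ly6k, Ly6h, Ly6d and Lynx1) were described across 5 murine melanoma lines. The 8 genes were taken by their symbols from the 55385 genes of the count tables, and all 8 lie within 819 kb on chromosome 15. Ly6e was chosen by its difference between the lines, and the other genes were taken as its relatives beside it. The values that chose Ly6e are those of the comparisons of WT31, B16F10 luc2 and RET with D4M and HCmel12, and these are therefore given as a description without a test.

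Ly6 proteins are small surface proteins with a three-finger fold, and most of them are held on the outer membrane by a glycosylphosphatidylinositol (GPI) anchor. Ly6e and Ly6a (Sca-1) are known as genes induced by interferon. Ly6c1 and Ly6c2 encode the Ly6C antigens of myeloid and endothelial cells. Lynx1 and Ly6h bind nicotinic acetylcholine receptors, Ly6d marks early B cells and keratinocytes, and Ly6k is a gene of the testis.

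RNA-seq of 25 libraries was used, with 5 biological replicates of each line, grown untreated to 50% confluency. WT31 arose in Tyr::NrasQ61K mice that were also INK4a-/-, so that its oncogene was driven by the tyrosinase promoter. B16F10 luc2 is a commercial luciferase line, and RET was obtained from mice in which the metallothionein promoter drives human RET. HCmel12 goes back to a primary tumor of the HGF-CDK4(R24C) mouse model, and D4M to mice with Tyr::CreER and BrafCA among their alleles, in which Cre is active in cells that use the tyrosinase promoter. WT31, B16F10 luc2 and RET are grouped as HIM-melanoma, the lines with high or intermediate metastasis to the liver, and D4M and HCmel12 as LM-melanoma, with low metastasis. Every line is a single line, so that the replicates are cultures of it, and the 3 lines of HIM-melanoma shared 1 medium, while those of LM-melanoma were grown in other media that differed from each other. Line, driver and medium cannot be told apart, and neither can fewer cells with a transcript and less of it per cell.

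Library totals lay between 24199083 and 25843286 estimated counts. In all lines other than D4M the 8 genes of the melanocyte lineage (Mitf, Sox10, Pmel, Tyr, Tyrp1, Dct, Mlana and Slc45a2) summed to between 12288 and 31363 CPM (counts scaled to a common library size). In D4M they summed to between 6.59 and 60.6 CPM, so that the markers of the labelled cell type were nearly absent there. The highest of these values belonged to D4M replicate 1, with 588 counts of Tyrp1, which had 0, 0, 1 and 67 counts in the other D4M libraries. HCmel12 replicate 4 had 744 counts of Tyr, while the other 4 libraries of HCmel12 had between 155 and 229. Without these 2 libraries the counts of called Ly6 genes, other family genes and neighbours between D4M and HCmel12 were again 4, 5 and 12. The 5 fibroblast genes (Col1a1, Col1a2, Dcn, Pdgfra and Pdgfrb) summed to 480 to 736 CPM in D4M and to at most 102 CPM elsewhere. The part of these marker lists in the levels of the Ly6 genes in D4M was not tested. Of the leukocyte genes, Ptprc and Cd3e had at most 3 counts in every library, while Lyz2 had between 85 and 304 counts in WT31 and at most 1 in D4M. The 4 endothelial genes summed to between 25.4 and 39.1 CPM in HCmel12, where Kdr had between 626 and 960 counts, and to at most 2.03 CPM elsewhere. Of the keratinocyte genes, Krt5, Krt14 and Krt1 had at most 3 counts in every library, while Krt10 had between 45 and 64 in WT31, between 44 and 69 in D4M and 0 in the other lines.

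A pair of qPCR primers for Ly6e is shown because it places the transcript on the gene. They are written 5′ to 3′, with the 7 bases of the forward primer that lie beyond an exon junction in capitals.
Ly6e forward primer: tgcgggctttgGGAATGT
Ly6e reverse primer: ttggcagcagtagctgttca
Both primers were found in 12 of the 16 transcripts that GENCODE lists for Ly6e (GRCm38, plus strand), and in 11 of these they lie in the coding sequence. They enclose 121 bases of the transcript at chr15:74958378-74958602, with the first 11 bases of the forward primer in one coding exon and its last 7 bases in the next. No other gene had both primer sequences in its transcripts, while the reverse primer alone also matched Ly6e-ps1 exactly.

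The second set of sequences shows the starts of Ly6c1 and Ly6c2, neighbours whose levels differed within D4M although the genes are near copies of each other. Each window of 300 bases (RefSeq, GRCm38.p6) spans the transcription start and is written 5′ to 3′ on the minus strand. The Ly6c1 window is chr15:75048788-75049087 and the Ly6c2 window chr15:75111922-75112221. Capitals mark the longest run of bases that both share.
Ly6c1: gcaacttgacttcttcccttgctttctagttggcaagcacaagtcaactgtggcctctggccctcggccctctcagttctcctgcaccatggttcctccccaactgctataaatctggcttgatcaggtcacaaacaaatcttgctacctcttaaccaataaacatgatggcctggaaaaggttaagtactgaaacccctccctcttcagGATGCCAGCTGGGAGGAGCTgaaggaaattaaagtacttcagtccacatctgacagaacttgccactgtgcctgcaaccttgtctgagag
Ly6c2: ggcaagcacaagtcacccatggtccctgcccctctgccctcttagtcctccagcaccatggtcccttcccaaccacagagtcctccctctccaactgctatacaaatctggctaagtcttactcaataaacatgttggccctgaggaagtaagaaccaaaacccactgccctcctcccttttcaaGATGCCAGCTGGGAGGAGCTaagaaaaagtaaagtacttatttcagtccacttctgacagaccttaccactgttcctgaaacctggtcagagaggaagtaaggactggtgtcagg
In an alignment of both windows, 214 of 260 aligned bases (82.3%) were identical. The shared run of 20 bases occurred on either strand in 5 of 32851 promoter windows of this length (0.0152%), and these belonged to Ly6c1, Ly6c2 and Ly6a2. Neither window held the letters TTCNNNGAA, the consensus of a STAT site, on either strand, which 8.30% of all windows hold. A window was found for 2 of the 8 genes.

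Ly6e was the highest of the 8 genes and was found in D4M and HCmel12. It has been described as a regulator of viral entry and of T cell activation. The 5 libraries of D4M had 3432, 2976, 3539, 4204 and 3990 counts of Ly6e (chromosome 15 from 74955051 to 74959905, plus strand). HCmel12 had 543, 491, 407, 531 and 536 counts. WT31 had 2, 0, 1, 1 and 0 counts, B16F10 luc2 had 0, 2, 2, 0 and 1, and RET had 4, 2, 0, 0 and 1. D4M and HCmel12 overlapped neither with each other nor with any line of HIM-melanoma, while the 3 lines of HIM-melanoma overlapped and held 16 counts of Ly6e among 15 libraries.

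In TPM (a level per transcript length), Ly6e reached 239 ± 36.3 in D4M (SD, n = 4) and 31.6 ± 3.18 in HCmel12 (SD, n = 5). Ly6e was 7.94-fold higher in D4M than in HCmel12 (log2 fold change 2.99, SE 0.11, n = 5 each, adjusted p = 6.75e-19, limma), a comparison that did not choose the gene. Without D4M replicate 1 and HCmel12 replicate 4 the log2 fold change was 3.03. Among the lines of HIM-melanoma no difference of Ly6e passed the test, with adjusted p (limma) between 0.69 and 0.92 in the 3 pairs, at a depth at which a library with no count allows up to 3 counts. As a description of the comparisons that chose it, the counts summed over a line were 5292 times as high in D4M as in WT31 after scaling (95% interval 2067 to 19426), 3986 times as high as in B16F10 luc2 (1708 to 12278) and 2954 times as high as in RET (1434 to 7349). In HCmel12 they were 665 times as high as in WT31 (259 to 2442), 501 times as high as in B16F10 luc2 (214 to 1544) and 371 times as high as in RET (180 to 924). These intervals are exact binomial intervals and cover counting error only.

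**Figure D1:**
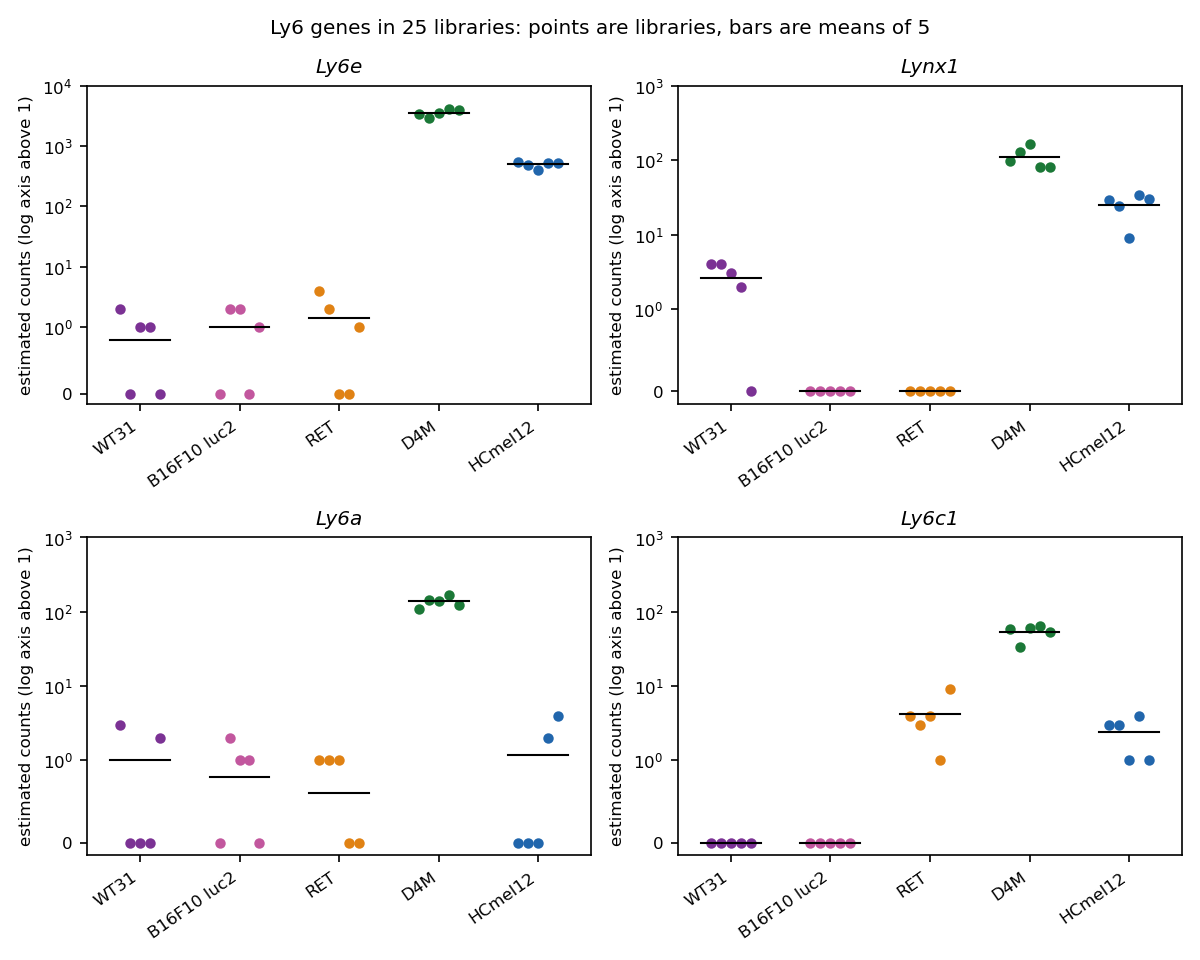
Estimated counts of Ly6e, Lynx1, Ly6a and Ly6c1 in each of 25 libraries on a vertical axis that is logarithmic above 1 count, with 1 column of points per line and a bar at the mean of 5 libraries. Ly6e lies between 2976 and 4204 counts in D4M, between 407 and 543 in HCmel12 and at no more than 4 in the other 3 lines.

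Lynx1, a brake on nicotinic acetylcholine receptors known from neurons, followed the order of Ly6e at a lower level. Lynx1 (chromosome 15 from 74747852 to 74753046, minus strand) had 97, 128, 167, 82 and 81 counts in D4M and 29, 24, 9, 34 and 30 counts in HCmel12. WT31 had 4, 4, 3, 2 and 0 counts, and every library of B16F10 luc2 and RET had 0. D4M lay above HCmel12 and HCmel12 above WT31 without overlap. Lynx1 was 5.00-fold higher in D4M than in HCmel12 (log2 fold change 2.32, SE 0.29, n = 5 each). With 9 counts in replicate 3, HCmel12 alone did not carry Lynx1 through the filter on low counts. Lynx1 passed the filter only with the libraries of D4M, so that this difference is given without a test.

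Within HIM-melanoma, the 13 counts of Lynx1 in WT31 were at least 4.08-fold higher than in B16F10 luc2 (adjusted p = 0.0067, limma, n = 5 each) and at least 4.23-fold higher than in RET (adjusted p = 0.0056). These bounds were set against 3 counts over the 5 libraries of the lower line. WT31 had a mean of 2.6 counts per library, under the 3 counts that a library with no count allows. With 0 counts in replicate 5, WT31 overlapped with both lines. Lynx1 was not tested when only the 2 lines of a comparison were fitted. The fitted log2 fold changes were 2.20 and 2.25 and rose to 2.79 and 2.85 without WT31 replicate 5, and neither difference passed the test with log2 TPM (adjusted p = 0.61 and 0.60).

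Ly6a, known as Sca-1 and used as a stem cell marker in the mouse, was found in D4M alone at more than 4 counts. Ly6a (chromosome 15 from 74994877 to 74998031, minus strand) had 110, 143, 141, 170 and 125 counts in D4M. HCmel12 had 0, 0, 0, 2 and 4 counts, WT31 had 3, 0, 0, 0 and 2, B16F10 luc2 had 0, 2, 1, 1 and 0, and RET had 1, 1, 1, 0 and 0. All 4 lines other than D4M overlapped, and D4M overlapped with none. The counts of Ly6a summed over D4M were 126 times as high as those over HCmel12 (95% interval 57.8 to 346, counting error only). Ly6a passed the filter on low counts through D4M alone, so that its difference from the other lines is a description without a test. Among the pairs of lines within HIM-melanoma, adjusted p for Ly6a lay between 0.86 and 0.96 (limma).

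Ly6c1 was again highest in D4M, but RET also held a small number of its counts. Ly6c1 (chromosome 15 from 75044018 to 75048830, minus strand) had 59, 34, 59.8, 64 and 52.7 counts in D4M, 4, 3, 4, 1 and 9 in RET and 3, 3, 1, 4 and 1 in HCmel12. Every library of WT31 and B16F10 luc2 had 0. RET and HCmel12 overlapped, with 1.69 times as many scaled counts in RET (95% interval 0.794 to 3.77, counting error only). Ly6c1, too, passed the filter through D4M alone, and its counts summed over D4M were 24.7 times as high as those over HCmel12 (95% interval 13.9 to 48.3, counting error only), given without a test. The 21 counts of Ly6c1 in RET were at least 7.17-fold higher than in WT31 (adjusted p = 2.99e-06, limma) and at least 6.75-fold higher than in B16F10 luc2 (adjusted p = 1.09e-05).

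Reads of Ly6a, Ly6c1 and Ly6c2 could not be fully told apart. Of the 31-base sequences in the transcripts of Ly6a, 31.9% occurred in transcripts of other genes, and for Ly6c1 this share was 46.8%, of which most were shared with Ly6c2 (33.0% of all). The share was 0.422% for Ly6e and 0 for Lynx1. The authors' counting with kallisto divides such reads between genes, so that counts need not be whole, and its part in the levels of Ly6a and Ly6c1 was not tested.

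Of the remaining 4 genes none passed the filter on low counts, and they are given by their values alone. Ly6c2 (chromosome 15 from 75108158 to 75111970) had 1, 1, 3.16, 5 and 4.34 counts in D4M, 1 count in a single library of WT31 and 0 in the other lines. Ly6c1 thus had 269 counts over the 5 libraries of D4M and Ly6c2 14.5. Ly6h (chromosome 15 from 75551268 to 75567255) had between 1 and 6 counts in WT31 and at most 3.10 in any other library. Ly6k (chromosome 15 from 74796874 to 74799986) and Ly6d (chromosome 15 from 74762056 to 74763620) had 0 counts in all 25 libraries, which allows up to 3 counts per library. An antisense gene, Gm17189, shares 39.0% of the 31-base sequences of Ly6k.

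**Figure D2:**
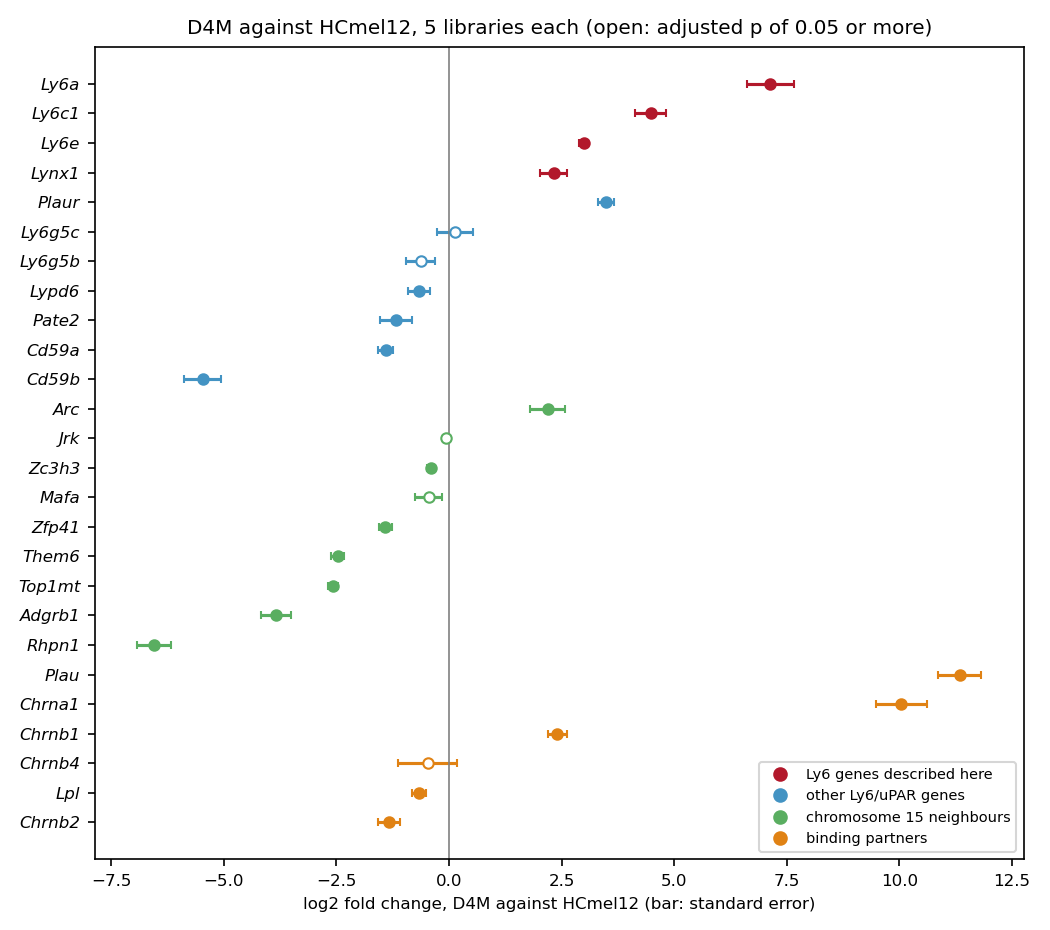
Log2 fold change of D4M against HCmel12 for named genes, with horizontal bars of 1 standard error and filled points where the adjusted p (limma, 5 libraries each) was under 0.05. The 4 Ly6 genes lie between 2.32 and 7.14, while other members of the family, neighbours on chromosome 15 and binding partners lie on both sides of 0. Ly6a, Ly6c1 and Chrna1 passed the filter on low counts through D4M alone, and Cd59b and Adgrb1 through HCmel12 alone. Their differences were required by the filter, so that their filled points are no test. Lynx1 passed the filter only with the libraries of D4M, so that its filled point is no test either.

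Of the 8 genes, 4 were tested (Ly6e, Ly6a, Ly6c1 and Lynx1), and all 4 were higher in D4M than in HCmel12. Over all 15247 tested genes, 72.5% differed between these lines and 36.8% were higher in D4M. The median log2 fold change of the 4 genes was 3.73 in relation to 0.0036 over all tested genes. Ly6a and Ly6c1 reached 10 counts only in D4M and passed the filter through this line, so that their difference was required by it. Lynx1 passed the filter only with the libraries of D4M, since HCmel12 replicate 3 had 9 counts. The count of 4 is therefore no support for a rule about the family.

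As a description of the comparisons that chose Ly6e, all 4 tested genes were lower in WT31 than in D4M (76.1% of all tested genes differed in this comparison), and likewise in B16F10 luc2 (77.7%) and RET (77.1%). In relation to HCmel12, 3 of the 4 were lower in WT31 (70.4% of all tested genes differed) and in B16F10 luc2 (69.1%), and 2 in RET (67.2%). Ly6e and Lynx1 were commonly regulated, that is lower in all 3 lines of HIM-melanoma in relation to both lines of LM-melanoma. Of all tested genes, 12.9% were commonly regulated with a single sign and 6.4% were lower in HIM-melanoma. Between WT31 and B16F10 luc2 the test called 1 of the 4 genes (72.8% of all tested genes), between WT31 and RET 2 (73.2%) and between B16F10 luc2 and RET 1 (51.5%), which are the differences of Lynx1 and Ly6c1 given above.

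Over the 25 libraries, log2 CPM of Ly6e ran closest to that of Lynx1 among the other tested Ly6 genes (Pearson's r = 0.96), and Ly6a ran closest to Ly6c1 (r = 0.91). These values describe 25 libraries that fall into 5 lines and share their depth and scaling. Among all tested genes the 5 most alike to Ly6e were Fgl2 (r = 0.99), a fibrinogen-like protein of immune regulation, Fut4, a fucosyltransferase that builds Lewis x, the transporter gene Slco5a1, the flippase gene Atp10a and Man1a, a mannosidase of N-glycan trimming, all at r of 0.99. Fgl2 and Fut4 had 0 counts in every library of HIM-melanoma, while Fgl2 had a mean of 12.8 ± 1.95 CPM in D4M and 2.50 ± 0.31 CPM in HCmel12 (SD, n = 5 each). The 2 genes most alike to Ly6c1 were Fam126a and Chst7 (r = 0.97 each), and to Lynx1 Snhg18 and Adam15 (r = 0.98 each). By Spearman's rank correlation 1 of the 5 genes of Ly6e, Fut4, was again among the first 5, and none of the genes of Ly6c1 and Lynx1 was again among the first 2.

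Across the wider family of Ly6/uPAR genes, the lines differed in which gene made up most of the transcripts. The 45 genes of this family that were matched, the 8 included, summed to 422 ± 15 TPM in D4M (SD, n = 4), and to 78.5 ± 10.1 in WT31, 69.2 ± 2.17 in HCmel12, 59.9 ± 3.73 in B16F10 luc2 and 49.1 ± 1.57 in RET (SD, n = 5 each). Ly6e made up 56.5% of this sum in D4M and 45.6% in HCmel12. In WT31, 93.8% of the sum was Cd59a, the inhibitor of the membrane attack complex of complement. In B16F10 luc2 Cd59a made up 37.2% and Ly6g5c 35.1%, and in RET Plaur, the urokinase receptor, made up 41.8% and Ly6g5c 37.4%. Ly6e made up at most 0.288% in any line of HIM-melanoma.

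**Figure D3:**
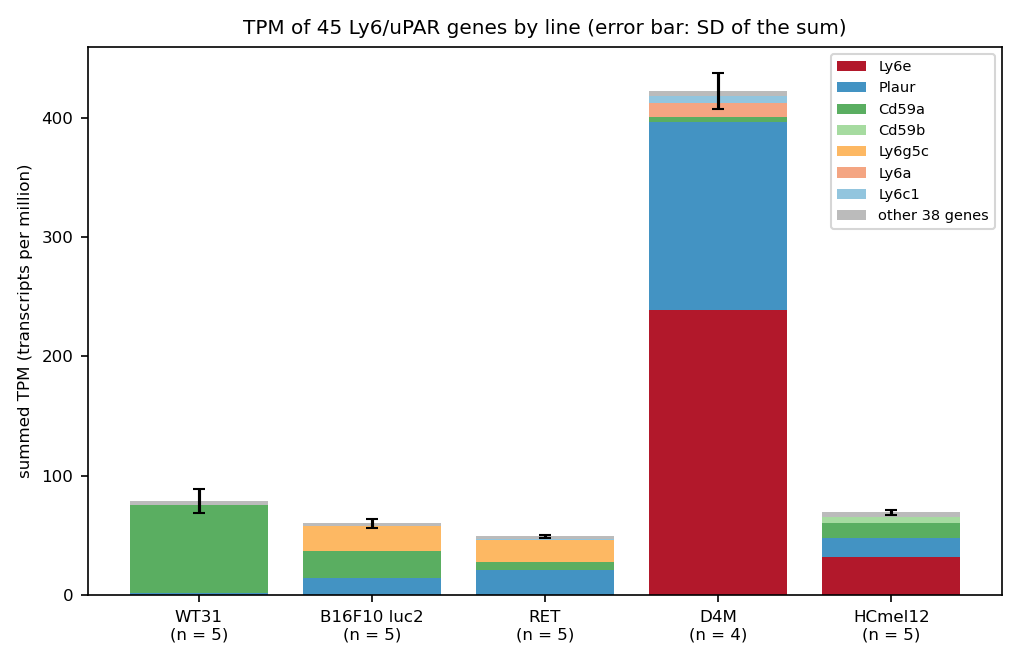
Stacked bars of the mean TPM of 45 Ly6/uPAR genes in each line, from 0, with the 7 highest genes in colors, the rest in grey and the SD of the sum as error bar (n = 4 in D4M and n = 5 in the other lines). The sum is 422 TPM in D4M and between 49.1 and 78.5 TPM elsewhere, and Ly6e is visible in D4M and HCmel12 only.

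Plaur was highest in D4M and lowest in WT31. The 5 libraries of D4M had 3814, 4287, 4209, 2739 and 3021 counts of Plaur, and those of WT31 had 23, 28, 26, 54 and 16. HCmel12, with 214 to 566 counts, overlapped with both RET (401 to 558) and B16F10 luc2 (261 to 389). Plaur was 11.1-fold higher in D4M than in HCmel12 (log2 fold change 3.48, SE 0.18, n = 5 each, adjusted p = 1.65e-15, limma). In relation to WT31 the log2 fold change was 3.66 in B16F10 luc2 (SE 0.42, adjusted p = 1.85e-08, limma) and 4.14 in RET (SE 0.42, adjusted p = 1.43e-09), stated as differences from WT31. Its ligand Plau, the urokinase-type plasminogen activator, had between 19245 and 38122 counts in D4M, between 27.7 and 74.9 in RET and at most 27 in the other lines.

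Cd59a had an order of its own, with 2108, 2073, 1693, 1517 and 1780 counts in WT31 and 111, 102, 121, 103 and 118 counts in D4M. All 5 lines were apart in the order WT31, B16F10 luc2, HCmel12, RET and D4M by CPM. Cd59a was 2.66-fold lower in D4M than in HCmel12 (log2 fold change -1.41, SE 0.16, n = 5 each, adjusted p = 1.20e-08, limma). Its copy Cd59b had 30.5, 19.6, 15.5, 32.9 and 25.8 counts in HCmel12, at most 3.38 in WT31 and RET, and 0 in B16F10 luc2 and D4M. The share of 31-base sequences that also occur in other genes was 30.1% for Cd59b and 9.39% for Cd59a.

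Ly6g5c, a family gene in the major histocompatibility region of chromosome 17, was found in B16F10 luc2 and RET alone. B16F10 luc2 had 121, 115, 139, 103 and 101 counts and RET had 119, 111, 78, 110 and 108, whereas all 15 libraries of WT31, D4M and HCmel12 had 0. B16F10 luc2 and RET overlapped (log2 fold change 0.19, SE 0.11, n = 5 each, adjusted p = 0.14, limma). Ly6g5c passed the filter through these lines alone and was at least 205-fold higher in B16F10 luc2 than in WT31, given without a test. Its neighbour Ly6g5b had between 3 and 16 counts in all 25 libraries. Lypd6, which binds nicotinic receptors and Wnt coreceptors, had 22, 42, 12, 21 and 25 counts in D4M and 54, 47, 49, 27 and 30 in HCmel12, and at most 1 in any library of HIM-melanoma. Of the 7 tested other genes of the family, 1, Lypd6, was commonly regulated (12.9% of all tested genes). Lypd6 passed the filter on low counts through D4M and HCmel12 alone, so that its lower level in HIM-melanoma was required by it. Its difference between D4M and HCmel12 (log2 fold change -0.67, SE 0.25, adjusted p = 0.018, limma) passed the test in 3 of 9 other ways of processing. Pate2 had between 3 and 35 counts in all libraries.

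**Figure D4:**
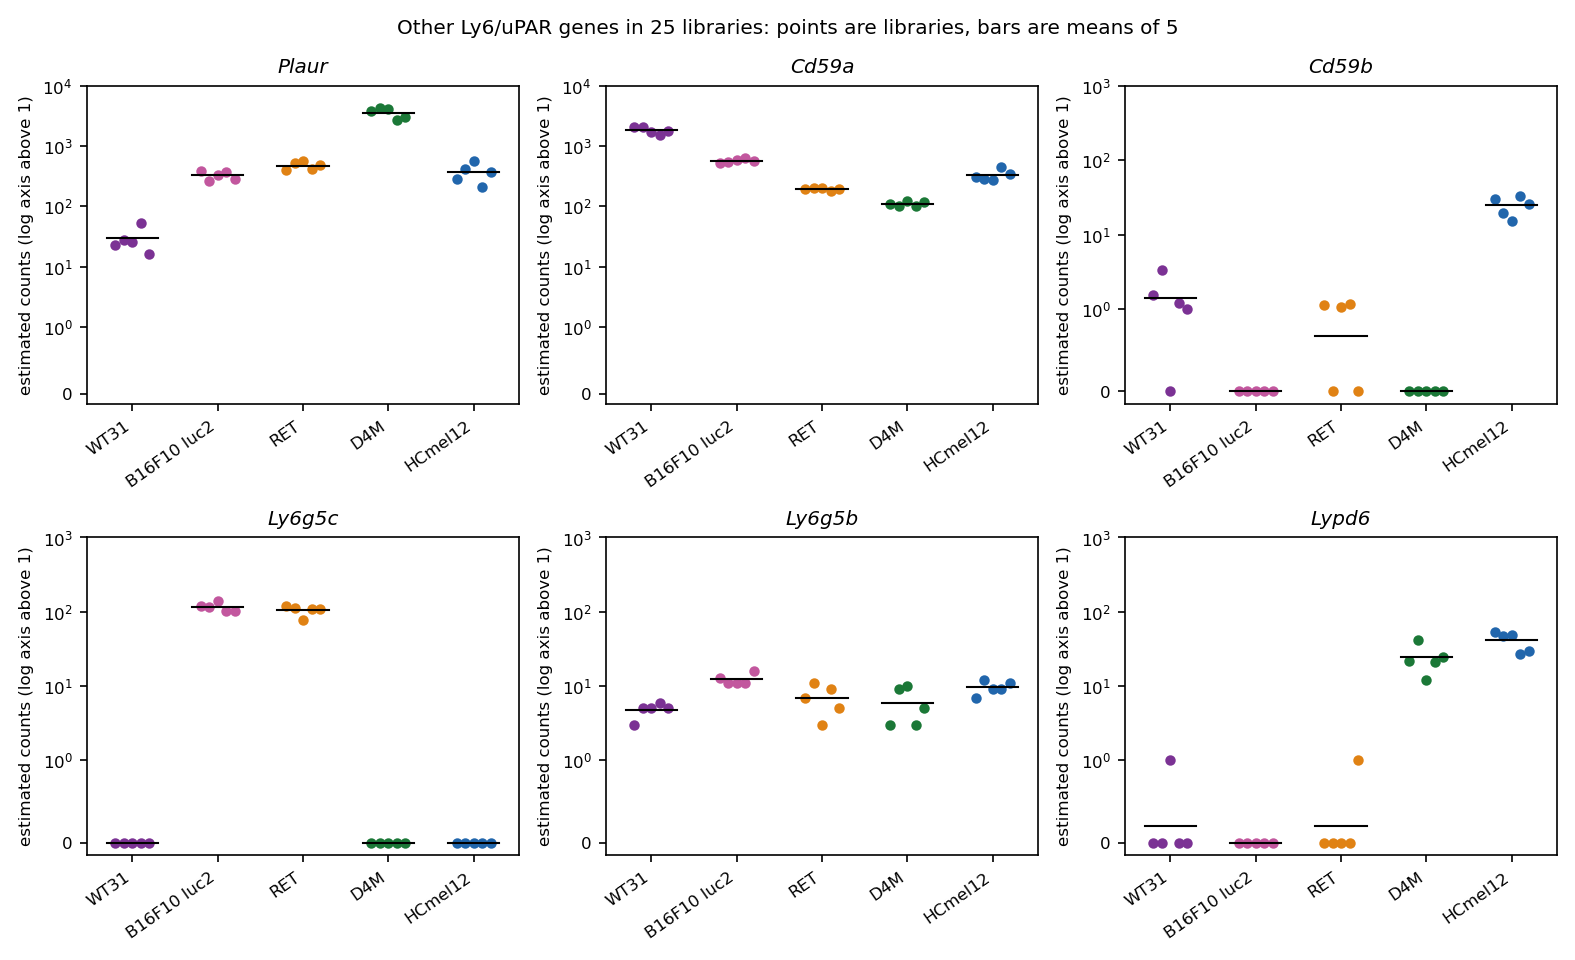
Estimated counts of Plaur, Cd59a, Cd59b, Ly6g5c, Ly6g5b and Lypd6 in each of 25 libraries on a vertical axis that is logarithmic above 1 count, with a bar at the mean of 5 libraries per line. Plaur is highest in D4M, Cd59a in WT31 and Cd59b in HCmel12, and Ly6g5c is at 78 to 139 counts in B16F10 luc2 and RET and at 0 elsewhere.

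Of 40 further Ly6/uPAR genes that were listed, 37 were matched and 7 were tested. Between D4M and HCmel12 the test called 5 of the 7 (72.5% of all tested genes), Plaur higher and Lypd6, Pate2, Cd59a and Cd59b lower in D4M. Cd59b passed the filter on low counts through HCmel12 alone, so that its difference was required by it. The median log2 fold change of the 7 genes was -0.67. The other 30 matched genes, among them Ly6g, Ly6i, Ly6f and Psca, did not pass the filter on low counts.

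On chromosome 15, Ly6e and its relatives lie in a run of genes that were low in B16F10 luc2 and RET. From Adgrb1 to Gpihbp1 (chr15:74516195-75599481, 1.08 Mb) lie 29 protein-coding genes, 8 of which are the Ly6 genes described here. None of them reached a mean of 10 counts in B16F10 luc2 or RET, while 2 did in WT31, 7 in D4M and 6 in HCmel12. All 5 libraries had no count for 21 of the 29 genes in B16F10 luc2 and in RET, for 16 in WT31 and D4M each and for 17 in HCmel12. WT31 had at most 2 counts of Ly6e in a library although it held Jrk and Them6. Summed over the 29 genes, a library of B16F10 luc2 had between 6.03 and 10.46 counts and a library of RET between 3.00 and 14. A library of WT31 had between 501 and 647 counts, of HCmel12 between 1596 and 1979, and of D4M between 4017 and 4992. The run and its right end were chosen after its values were seen. Its left end, Adgrb1, is the first protein-coding gene of the window of 1 Mb around Ly6e, and genes further left are not described here. Of the 13 protein-coding genes beyond Gpihbp1 in the same window, 11 had a mean of at least 10 counts in B16F10 luc2, RET, WT31 and HCmel12 each and 9 in D4M.

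The run was seen most clearly in Jrk and Them6, genes of a nuclear DNA-binding protein and of a thioesterase-like protein. Jrk had 157, 155, 148, 155 and 183 counts in WT31, and between 207 and 246 in D4M and between 233 and 298 in HCmel12. B16F10 luc2 had 1 count of Jrk in 1 of 5 libraries, and RET had 0 in all 5. Jrk was at least 260-fold higher in WT31 than in RET, and 751 times as high as in B16F10 luc2 by summed counts (95% interval 134 to 29711, counting error only). Jrk and Them6 were singled out after their values were seen, and these differences are given without a test.

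Them6 had between 316 and 456 counts in WT31, between 114 and 169 in D4M and between 689 and 1123 in HCmel12, and 1 count in 1 library of B16F10 luc2 and 0 in RET. Them6 was at least 642-fold higher in WT31 than in RET. Arc, an immediate early gene of neurons, had 0 in all 10 libraries of B16F10 luc2 and RET, between 1 and 12 in WT31, between 20 and 46 in HCmel12, and 103, 360, 102, 92 and 64 in D4M. Adgrb1, an adhesion receptor gene, had between 16 and 31 counts in HCmel12 and at most 2 elsewhere.

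Right of the run all 5 lines had counts. Zfp41 had between 511 and 920 counts in the libraries of WT31, between 594 and 718 in B16F10 luc2 and between 533 and 644 in RET, and WT31 differed by a log2 fold change of -0.06 from B16F10 luc2 (SE 0.11, adjusted p = 0.65, limma, n = 5 each) and of 0.17 from RET (SE 0.11, adjusted p = 0.17). Top1mt, the mitochondrial topoisomerase, had between 684 and 973 counts in HCmel12 and between 110 and 139 in D4M. Rhpn1 had at most 3.07 counts in D4M and between 163 and 216 in HCmel12. Mafa had between 5 and 45 counts in all libraries. Zc3h3, of which 78.9% of the 31-base sequences occur in the gene Gm7353, had between 454 and 1028.

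**Figure D5:**
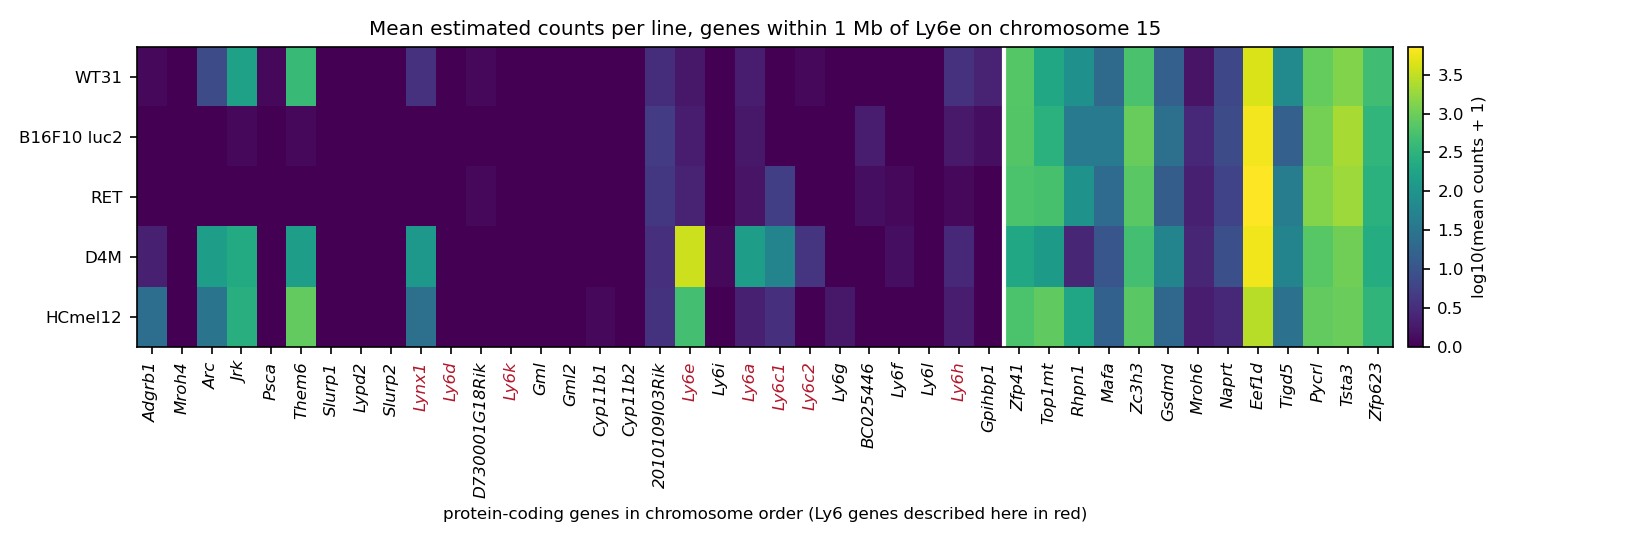
Mean estimated counts of 5 libraries per line, as log10 of the mean plus 1 in color, for 42 protein-coding genes within 1 Mb of Ly6e in chromosome order, with the 8 Ly6 genes in red letters. Left of the white line, B16F10 luc2 and RET stay dark over 29 genes, whereas Jrk and Them6 are light in WT31, D4M and HCmel12 and Ly6e in D4M and HCmel12.

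Across the genome, 9175 genes had a mean of at least 100 counts in each of WT31, D4M and HCmel12. Of these, 13 had at most 3 counts in every library of B16F10 luc2 and RET, and 2 of the 13, Jrk and Them6, lie on chromosome 15. DNA copy number of the run was not analysed here, and its part in the missing counts was not tested. Over the 594 tested genes of chromosome 15 the median log2 fold change of WT31 was -0.31 in relation to B16F10 luc2 and -0.25 in relation to RET, in contrast to -0.0012 and -0.0017 over all tested genes.

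Of the 34 neighbours within 1 Mb, 15 were tested. The test called 12 of them between D4M and HCmel12, 5 higher and 7 lower in D4M (72.5% of all tested genes differed), with a median log2 fold change of -0.28. In relation to LM-melanoma 3 of the 15 (Adgrb1, Arc and Jrk) were commonly lower in HIM-melanoma (6.4% of all tested genes). Arc passed the filter on low counts through D4M and HCmel12 alone, so that its lower level in HIM-melanoma was required by it. Adgrb1, also among the 12, passed the filter on low counts through HCmel12 alone, so that its differences from HCmel12 were required by it. D4M had 6 counts of Adgrb1 over 5 libraries and at most 2 in any, under the 3 counts that a library with no count allows. The place of Adgrb1 among the 3 is therefore no support for a lower level in HIM-melanoma than in D4M. Between D4M and HCmel12 Jrk did not pass the test (log2 fold change -0.06, SE 0.08, n = 5 each, adjusted p = 0.52, limma), Them6 was 5.56-fold lower in D4M (log2 fold change -2.48, SE 0.14, adjusted p = 2.31e-14), and Arc was 4.56-fold higher in D4M (log2 fold change 2.19, SE 0.40, adjusted p = 1.99e-05). These 15 neighbours, which leave out the Ly6 genes, thus did not share a single direction between the lines of LM-melanoma.

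Known partners of Ly6 and uPAR proteins were highest in different lines, Chrna1, Chrnb1 and Plau in D4M, Chrnb2 in B16F10 luc2, Chrnb4 in RET and Lpl in HCmel12. Of 16 listed genes, 6 were tested, and 5 of them differed between D4M and HCmel12, 3 higher and 2 lower in D4M (72.5% of all tested genes differed). Among the 3 is Chrna1, whose difference was required by the filter on low counts. Chrna1, the alpha subunit of the muscle acetylcholine receptor, had 3285, 2357, 3480, 4711 and 4225 counts in D4M and at most 8.003 in any other library, and passed the filter through D4M alone, so that no test is given. The beta subunit gene Chrnb1 was 5.31-fold higher in D4M than in HCmel12 (log2 fold change 2.41, SE 0.21, adjusted p = 6.79e-11). Chrnb2, a neuronal subunit gene that shares 15.05% of its 31-base sequences with Adar, was 2.51-fold lower in D4M (log2 fold change -1.33, SE 0.25, adjusted p = 2.83e-05), with 90.9 counts in HCmel12 replicate 4 and between 40.2 and 49.5 in the other HCmel12 libraries. Chrnb4 had between 25 and 31 counts in RET, between 7 and 18 in B16F10 luc2 and at most 3 in the other lines. Lpl, the lipase that Gpihbp1 carries in capillaries, had between 156 and 267 counts in D4M, between 314 and 484 in HCmel12 and at most 6.46 in HIM-melanoma, while Gpihbp1 had at most 3 counts in any library.

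The genes of the GPI anchor, which Ly6 proteins need to reach the membrane, were found in all lines. Of 31 listed genes, 29 were tested. Between D4M and HCmel12 the test called 23 (72.5% of all tested genes), of which 9 were higher and 14 lower in D4M, with a median log2 fold change of -0.15. The transamidase genes Pigt, Pigs and Pigk had log2 fold changes of 0.19 (SE 0.06, adjusted p = 0.0056, limma, n = 5 each), 0.21 (SE 0.07, adjusted p = 0.014) and -0.13 (SE 0.05, adjusted p = 0.032), and Pigq, of the first step of synthesis, one of -0.27 (SE 0.05, adjusted p = 7.52e-05). Pigk no longer passed the test when certain single libraries were left out, with adjusted p up to 0.10. Only 4 GPI genes passed when a change of 1 or more on the log2 scale was also required. Of the 29, 3 were commonly regulated (12.9% of all tested genes), with Pigh and Dpm1 higher and Piga lower in HIM-melanoma.

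Most genes of the interferon response were higher in D4M than in HCmel12. Of 46 listed genes 45 were tested, and 37 were higher and 4 lower in D4M than in HCmel12 (36.8% of all tested genes were higher), with a median log2 fold change of 1.94. B2m, the light chain of MHC class I, was 2.89-fold higher in D4M (log2 fold change 1.53, SE 0.10, n = 5 each, adjusted p = 3.77e-13, limma), Ifitm3, an antiviral membrane protein, 3.14-fold (log2 fold change 1.65, SE 0.17, adjusted p = 1.90e-09) and Ifitm2 1.24-fold (log2 fold change 0.31, SE 0.07, adjusted p = 0.00042), while Samhd1 had a log2 fold change of -0.01 (SE 0.09, adjusted p = 0.93). In RET, 34 of the 45 genes were higher than in B16F10 luc2 and none lower (51.5% of all tested genes differed), and 17 were higher and 8 lower than in HCmel12 (67.2%). In relation to HCmel12, 1 was higher and 34 lower in WT31 (70.4% of all tested genes differed), and 2 were higher and 28 lower in B16F10 luc2 (69.1%). Of the 45 genes, 7 were commonly lower in HIM-melanoma (6.4% of all tested genes). Ly6e had 7 counts over the 5 libraries of RET and 2508 over those of HCmel12, and Ly6c1 had 21 and 12. The part of the interferon response in the levels of the Ly6 genes was not tested.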

How the data were processed

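RNA-seq of 25 libraries of 5 murine melanoma lines was used. The authors trimmed the reads (Trim Galore 0.6.4), assigned them to transcripts of GRCm38.p6 with kallisto and deposited estimated counts per gene without normalization. Per the submitters' processing notes the version of kallisto was 0.4.6. The annotation release is not given in the sources used here. The authors also deposited TPM, scaled by transcript length, and those of D4M replicate 1 were not used here.

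Estimated counts were filtered with filterByExpr (edgeR 4.0.16, 15247 of 55385 genes kept), scaled with TMM factors and fitted with voom and limma (3.58.1, R 4.3.3) with 1 mean per line over all 25 libraries. P-values were adjusted per comparison over all tested genes with the Benjamini-Hochberg method, with a threshold of 0.05. The labels number the replicates but do not say that numbers pair them, and p-values measure the spread between these cultures. Library totals lay between 24199083 and 25843286 counts. CPM are counts relative to the filtered total times its TMM factor. A fold against a line with no count in 5 libraries was computed against 3 counts over these libraries and is a lower bound, and other ratios of summed counts have exact binomial intervals of 95%. Positions and transcripts are those of GENCODE (GRCm38), and 37 of 40 family genes, 30 of 31 GPI genes and all others were matched, some by older symbols. Sequences were compared as 31-base words on both strands, and promoters were aligned with Biopython 1.88.

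The Ly6 genes and all lists were chosen with earlier results of these data known. Named were the 8 genes, family genes with a mean of at least 10 counts in a line, up to 5 tested neighbours on each side of Ly6e, tested partners, 4 genes with the highest level of the GPI and interferon lists, and the genes most correlated with Ly6e, Ly6c1 and Lynx1. Some alleles, a marker and the genes most correlated with Ly6a are not reported here. Names outside this rule (the other commonly regulated GPI genes, and genes at low counts such as Ly6g, Psca and Gpihbp1) were chosen after their values were seen. The procedure was tested on simulated data. Alternatives were edgeR's quasi-likelihood test and the Wald test of DESeq2 (1.42.0) on rounded counts, scaling by library size or by DESeq2's size factors, no filter, at least 10 counts in every library, a fit with the 2 lines alone, log2 TPM with a pseudocount of 1 (24 libraries), a replicate block, a required change of 1 or more on the log2 scale, and leaving out libraries.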

Additional observations from a re-analysis of the deposited data

Results flagged for a closer look

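In 104 sets of 5 libraries of a line, Dixon's criterion at 95% picked out 7 single libraries that lay apart from the other 4, where chance alone picks out about 1 set in 20. Among the Ly6 genes, Ly6h had 0.228 CPM in WT31 replicate 2, which is 6 counts, and at most 0.0776 CPM in the other libraries of WT31. Among the other family genes, Pate2 had 1.00 CPM in B16F10 luc2 replicate 5 (0.999674 before rounding) and at most 0.743 CPM in the others. On chromosome 15, Arc had 15.9996 CPM in D4M replicate 2 and at most 4.73 CPM in the other libraries of D4M, and 1.86 CPM in HCmel12 replicate 3 in relation to at most 1.10 CPM. Arc then differed between D4M and HCmel12, with D4M replicate 2 left out, by a log2 fold change of 1.80 in place of 2.19. Jrk had 6.76 CPM in WT31 replicate 5 and between 5.74 and 5.96 CPM in the other libraries of WT31. Among the partners, Chrna1 had 0.155 CPM in WT31 replicate 2, which is 4.08 counts, and Chrnb2 had 3.67 CPM in HCmel12 replicate 4 in relation to at most 2.01 CPM in the others. Without HCmel12 replicate 4 the log2 fold change of Chrnb2 between D4M and HCmel12 was -1.11 in place of -1.33.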

How the results depend on the processing

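Over the counts of called genes and all alternatives, 312 values stayed within 1.5 times the main count, 11 were lower and 1 was higher. With at least 10 counts in every library, 0 Ly6 genes were called between D4M and HCmel12, within HIM-melanoma or between HIM- and LM-melanoma, since none of them was tested, and 2 other family genes, 6 neighbours and 19 interferon genes were called between D4M and HCmel12, with 0 family genes and 0 neighbours commonly regulated. With only the 2 lines of each comparison, 0 of the 4 calls of Ly6 genes within HIM-melanoma were made, because these genes did not pass the filter there, and 2 of them with log2 TPM. Without a filter 8 other family genes were called between D4M and HCmel12 in place of 5, and with a required change of 1 or more on the log2 scale 4 GPI genes in place of 23. With a single library left out, Ly6 genes called between D4M and HCmel12 stayed at 4, those within HIM-melanoma at 4, and those between HIM- and LM-melanoma, counted as gene and comparison, lay between 20 and 21. For single genes 6887 values kept their direction and side of the threshold, 69 lost and 43 gained significance, and none turned its direction with a call. Lynx1 of WT31 in relation to D4M fell to -5.08 from -5.68 on the log2 scale without WT31 replicate 5, and in relation to HCmel12 to -2.76 from -3.35. Replicates of a number did not deviate together (50 pairs, correlation between -0.13 and 0.14, 7 of 25 libraries closest to their own number), and with a replicate block 4 Ly6 genes were called between D4M and HCmel12, as without it. At 3 counts per library, levels under 0.111 to 0.138 CPM could not be seen.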
